A study of Mus musculus with 48 samples.

Results

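Esr1, Pgr, Prlr, Gata3, Foxa1, Elf5, Xbp1, Stat5a and Greb1 are the hormone receptors and luminal transcription factors of the mammary gland, and their signal was compared over 12 mouse mammary tumor models. The genes were chosen by symbol: a transcript cluster, the probe group that reports 1 gene on the array, was taken where the array's annotation gave it the symbol of a listed gene. Of the 9 listed genes 8 were measured, each by 1 cluster, among 19938 genes in all. No cluster carried the symbol Prlr in the annotation used, so the prolactin receptor is not analysed here. No filter on low signal was applied, so the 8 genes are all the measured members of the list, whatever their values.

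In the mammary gland, estrogen acts through estrogen receptor alpha, encoded by Esr1, which induces the progesterone receptor gene Pgr and, in human breast cancer cells, GREB1. GATA3 and FOXA1 act with the estrogen receptor in hormone-responsive luminal cells, and FOXA1 opens chromatin at its binding sites. ELF5, an ETS factor, and STAT5A, the signal transducer of the prolactin receptor, drive the alveolar lineage that makes milk, and XBP1 is the transcription factor that expands the secretory apparatus under endoplasmic reticulum stress.

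Each model is 1 tumor cell line implanted into the mammary fat pad of immunocompetent mice of its own strain, and the tumors were taken at 0.5 to 1.0 cm across with no treatment. For the implants that the study's methods describe, the hosts were females 6 to 8 weeks old, and the age is not stated for these 48 tumors. Lines of spontaneous Balb/c tumors were TS/A-E1, F311, 4T1, EMT-6 and D2A1. Lines of genetically engineered FVB/N tumors were 6DT1, HRM-1, M6, MVT-1 (from a tumor of a Myc and VEGF transgenic mouse, with MMTV promoter) and Met-1, while E0771 came from a spontaneous C57Bl/6 tumor and R3T from an engineered 129Sv tumor. There were 4 tumors per model, named in their labels as biological replicates, and each was hybridized to its own array. Every model is a single line, so the 4 tumors give the spread among implants of that line, and each tumor holds host cells beside the implanted cells.

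Sequence was printed for 4 genes whose patterns are compared: Foxa1 and Elf5, which were often highest in the same tumor, and Greb1 and Stat5a, whose promoters hold the core letters of the estrogen response element. The runs are the 250 bases before a transcription start in RefSeq on mouse build GRCm38.p6, 5′ to 3′ on the strand of the gene. Capitals mark a forkhead match in Foxa1 and the core letters in Greb1 and Stat5a, and Elf5 has no capitals because it held neither.
Foxa1, chr12:57546112-57546361, minus strand: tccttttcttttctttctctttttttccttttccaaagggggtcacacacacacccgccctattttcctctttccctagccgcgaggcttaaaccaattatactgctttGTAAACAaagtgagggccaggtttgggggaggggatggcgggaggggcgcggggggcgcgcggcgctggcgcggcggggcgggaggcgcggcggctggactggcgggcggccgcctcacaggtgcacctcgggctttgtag
Elf5, first start, chr2:103411848-103412097, plus strand: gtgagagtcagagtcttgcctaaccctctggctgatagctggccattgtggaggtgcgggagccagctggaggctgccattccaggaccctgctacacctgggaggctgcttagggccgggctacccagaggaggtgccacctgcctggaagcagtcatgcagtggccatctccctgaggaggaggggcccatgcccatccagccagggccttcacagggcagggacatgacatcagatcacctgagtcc
Greb1, first start, chr12:16800887-16801136, minus strand: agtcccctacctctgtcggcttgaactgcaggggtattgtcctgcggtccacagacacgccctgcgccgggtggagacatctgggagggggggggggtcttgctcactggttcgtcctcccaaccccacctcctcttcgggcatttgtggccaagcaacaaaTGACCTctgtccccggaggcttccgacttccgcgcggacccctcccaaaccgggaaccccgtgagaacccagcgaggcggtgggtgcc
Stat5a, first start, chr11:100859406-100859655, plus strand: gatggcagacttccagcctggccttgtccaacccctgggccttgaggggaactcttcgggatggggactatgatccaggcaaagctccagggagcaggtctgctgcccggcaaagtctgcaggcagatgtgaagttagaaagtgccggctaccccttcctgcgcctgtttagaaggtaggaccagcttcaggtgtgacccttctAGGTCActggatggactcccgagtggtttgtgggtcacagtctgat
The forkhead letters TGTTTAC, searched on both strands, were read in the Foxa1 window as GTAAACA, 141 bases before the start, and occurred in 3.17% of 32851 RefSeq promoter windows of the same length. The core letters AGGTCA, searched on both strands, occurred in 14.0% of windows and was read as TGACCT in Greb1, 88 bases before the start, and as AGGTCA in Stat5a, 46 bases before its first start. The full palindromic estrogen response element, which can overlap the core letters, occurred in 0.0639% of windows and in none of the windows of the 9 listed genes. The Gata3, Pgr, Elf5 and Xbp1 windows held none of these and neither the GATA letters AGATAA nor the STAT letters TTCNNNGAA. The core letters also lay, as TGACCT, 44 bases before the second start of Stat5a. The ETS letters GGAAGT, searched on both strands, occurred in 19.7% of windows. They were read in the Xbp1 window and in the first windows of Greb1, Stat5a and Prlr, and are not marked in the runs. A STAT match, TTCTAGGAA, lay 188 bases before the second start of Esr1, on chr10:4709908-4710157, and such matches occurred in 7.02% of windows. The same STAT letters lay 110 bases before the second start of Prlr, and the forkhead letters TGTTTAC 215 bases before it. A match describes the letters only.

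Signal is given as log2 of the deposited array value. Array medians lay between 6.76 and 6.99, and levels are compared only within a gene. The luminal keratin and adhesion genes that define the cell type varied over the models: the mean log2 signal of 8 luminal markers, taken relative to the median of the 48 tumors, was between 1.06 and 1.26 in HRM-1 tumors and between -3.09 and -0.80 in E0771 tumors. Krt18, a luminal keratin, had a mean of 12.98 ± 0.09 in HRM-1 tumors and 8.10 ± 1.78 in E0771 tumors (SD, n = 4). Genes of other cells also differed among tumors of 1 model. A score of the same kind over 8 adipocyte or 5 B cell markers exceeded 2.5 in 9 tumors: replicate 3 of 4T1, replicates 2 and 3 of 6DT1, replicate 1 of E0771, replicate 3 of EMT-6, replicates 1 and 2 of F311, replicate 2 of Met-1 and replicate 2 of R3T. In those tumors adipocyte scores lay between 0.018 and 4.06 and B cell scores between -0.0045 and 4.66, and in the other 39 between -1.20 and 2.05 and between -0.40 and 1.63. Results are given with and without them. In a bulk tumor, fewer cells of a type and less RNA per cell cannot be told apart.

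Of the 8 genes, 7 passed limma's F-test over the 12 models (adjusted p under 0.05), as did 70.4% of all 19938 genes. Gata3 and Elf5 had the widest ranges of model means, 19.7-fold and 24.2-fold, and Pgr did not pass. The median range of the 8 genes was 1.38 on the log2 scale, against 0.68 over all genes. With the 9 left out the same count of 7 genes passed, against 71.8% of all genes.

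Esr1 was highest in EMT-6 and 4T1 tumors and lowest in D2A1 tumors. The 4 EMT-6 tumors had log2 signals of 9.21, 9.24, 9.34 and 9.23, and the 4 4T1 tumors had 8.93, 9.21, 9.13 and 9.17. The 4 D2A1 tumors had 7.73, 8.13, 7.06 and 7.18. Both high groups lay wholly above the D2A1 tumors, and the lowest EMT-6 tumor lay just above the highest 4T1 tumor. EMT-6 tumors averaged 1.01 ± 0.31 (SE, adjusted p = 0.013) above the mean of the other 11 models and 4T1 tumors 0.85 ± 0.31 (SE, adjusted p = 0.039), while D2A1 tumors averaged -0.88 ± 0.31 (SE, adjusted p = 0.031) against it. The whole range of model means was 1.73 on the log2 scale, or 3.32-fold, and the F-test gave an adjusted p of 0.0012.

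Between these ends the order of Esr1 was R3T at 8.86 ± 0.23, 6DT1 at 8.85 ± 1.15, TS/A-E1 at 8.68 ± 0.12, MVT-1 at 8.36 ± 0.19, E0771 at 8.02 ± 1.05, HRM-1 at 7.90 ± 0.14, M6 at 7.85 ± 0.38, F311 at 7.85 ± 1.12 and Met-1 at 7.72 ± 0.55 (SD, n = 4). Of the 11 pairs of neighbours in the order, 2 did not overlap (EMT-6 above 4T1, and TS/A-E1 above MVT-1), and the rest overlapped. The share of such pairs over all genes was not counted. The large spreads came from single tumors. In F311 the values were 9.52, 7.16, 7.36 and 7.37, in E0771 9.55, 7.23, 7.81 and 7.49, and in 6DT1 7.63, 9.58, 10.05 and 8.14. The high tumors of those models, replicate 1 of F311 and E0771 and replicates 2 and 3 of 6DT1, are among the 9 with a high adipocyte or B cell score, and the part of those cells in the signal was not tested. Without the 9 tumors the pooled SD of Esr1 within models was 0.28 in place of 0.61, and the lowest model was F311 at 7.36. In that fit 8 in place of 3 models differed from the others. Over all genes the called share of model contrasts was 35.0% in place of 26.7%. The call for 4T1 did not hold without any 1 of its 4 tumors (adjusted p from 0.060 to 0.096), nor did that for D2A1 without its replicate 3 or 4 (adjusted p = 0.140 and 0.118).

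Pgr, the progesterone receptor gene, had its mean at the 30.7 percentile of all genes and gave no difference among the models (F-test adjusted p = 0.509). Model means ran from 6.82 ± 1.07 in F311 to 5.79 ± 0.16 in HRM-1 (SD, n = 4), and every pair of neighbours in the order overlapped. A few tumors stood above that range. The 4 6DT1 tumors had 5.91, 8.65, 7.02 and 5.70, the E0771 tumors 8.20, 5.72, 5.61 and 5.65, the F311 tumors 8.31, 6.06, 6.90 and 6.03, the EMT-6 tumors 6.69, 6.20, 7.59 and 5.55, and the R3T tumors 5.81, 7.44, 5.76 and 5.57. In all 5 of these models the highest tumor was among the 9 with a high adipocyte or B cell score. Without those tumors the range of means was 0.80 on the log2 scale and the F-test again did not pass (adjusted p = 0.276), with 1 model, F311, above the others by 0.56 ± 0.22 (SE, adjusted p = 0.048, on 2 tumors). Esr1 and Pgr means correlated weakly over the 12 models (Pearson r = 0.26), as a description of model means from the same arrays.

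Greb1, a target of the estrogen receptor in human breast cancer cells, had a low signal, with its mean at the 15.1 percentile of all genes. It was highest in E0771 tumors, at 5.36, 5.92, 6.04 and 5.93, of which the first is the tumor with high adipocyte markers. The other models had means between 4.99 in Met-1 and 5.35 in M6. E0771 tumors were 0.65 ± 0.10 (SE, adjusted p = 1.6e-06) above the mean of the others, and 0.81 ± 0.08 (SE, adjusted p = 1.4e-09) without the 9 tumors, when no other model overlapped with them. Met-1 tumors, at 4.91, 5.06, 4.95 and 5.02, averaged -0.25 ± 0.10 (SE, adjusted p = 0.047) against the others. That call did not hold with quantile normalization (adjusted p = 0.055), nor in 25 of 48 fits that each left out 1 tumor, among them those without each of the 4 Met-1 tumors. Means of Esr1 and Greb1 over the 12 models had r = -0.07. The 4T1 model, next to the top in Esr1, was near the bottom in Greb1 at 5.02 ± 0.16 (SD, n = 4), whereas R3T, with the next Esr1 mean, was next below E0771 in Greb1 without the 9 tumors, at 5.39.

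Stat5a model means lay within 1.98-fold of each other, a log2 range of 0.99 (F-test adjusted p = 0.0010). It was lowest in D2A1 tumors, at 8.54, 8.76, 8.52 and 8.42, and in HRM-1 tumors, at 8.67, 8.46, 8.59 and 8.76. D2A1 tumors averaged -0.56 ± 0.16 (SE, adjusted p = 0.0057) and HRM-1 tumors -0.50 ± 0.16 (SE, adjusted p = 0.015) against the other models. All 8 tumors lay below the 4 4T1 tumors, at 9.13, 9.04, 9.10 and 9.18. They overlapped with other models, as M6 replicates 3 and 4 had 8.71 and 8.70 and EMT-6 replicate 4 had 8.73. The highest mean, in 6DT1, was 0.52 ± 0.16 (SE, adjusted p = 0.011) above the others but came from 2 of 4 tumors, at 9.01, 10.36, 9.75 and 9.08. That difference was 0.08 without the 9 tumors (adjusted p = 0.634). It did not pass without replicate 2 of 6DT1 either, at 0.25 (adjusted p = 0.274), or without replicate 3, at 0.45 (adjusted p = 0.059), and the HRM-1 call did not pass without replicate 2 of HRM-1 (adjusted p = 0.066). In F311, replicate 1 had 10.34 and the other 3 tumors had 9.24, 9.10 and 9.09.

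**Figure D1:**
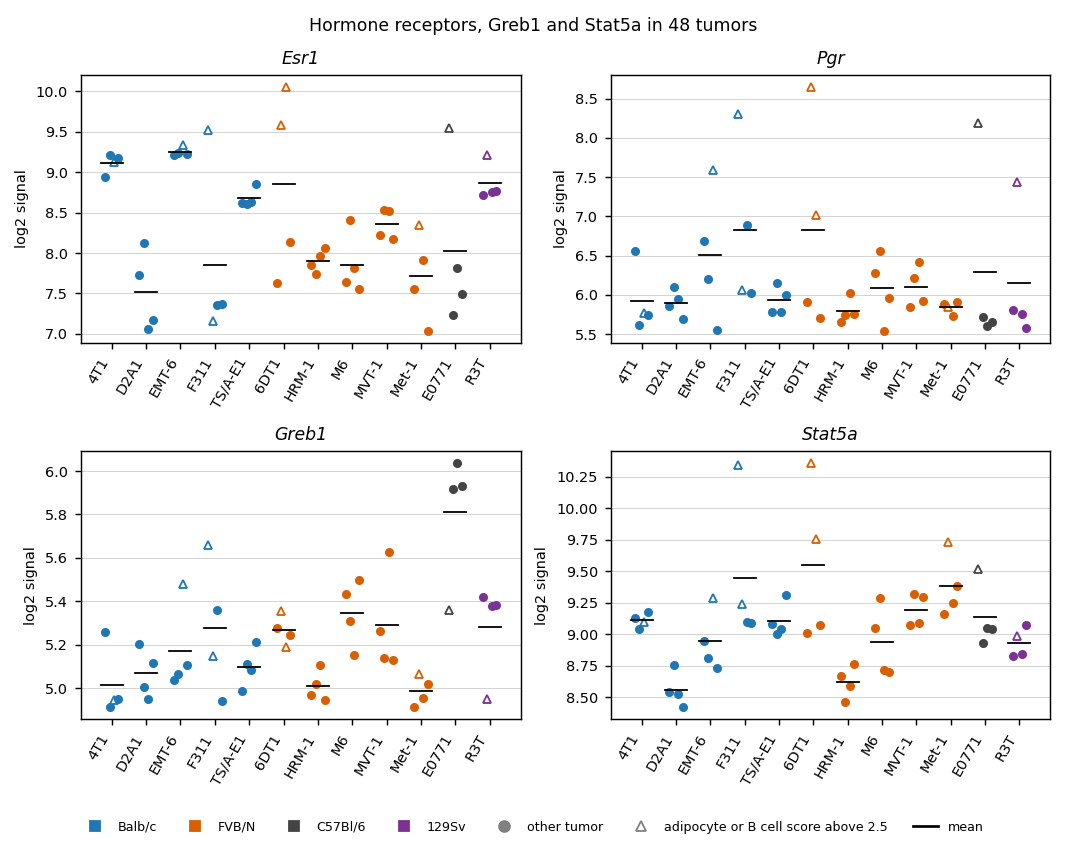
Log2 signal of Esr1, Pgr, Greb1 and Stat5a (vertical axes) in the 4 tumors of each of 12 models (horizontal axes), coloured by strain, with the mean as a bar and open triangles for the 9 tumors with an adipocyte or B cell score above 2.5. The 4 EMT-6 tumors lie between 9.21 and 9.34 for Esr1, and Pgr lies above 8 in single tumors of 6DT1, E0771 and F311, all of them triangles.

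Gata3, which luminal cells need to differentiate and stay luminal, divided the models most clearly of the 8 genes, with 89.4% of its variance among models (F-test adjusted p = 1.0e-13). The 4 4T1 tumors had log2 signals of 11.32, 11.39, 11.10 and 11.26, and the 4 HRM-1 tumors had 7.003, 6.92, 6.69 and 7.25. The difference of 4.30 between these means is 19.7-fold, and the groups were far apart. High means also held in Met-1 at 10.97 ± 0.23, 6DT1 at 10.65 ± 0.63, R3T at 10.61 ± 0.06 and MVT-1 at 10.35 ± 0.11, followed by TS/A-E1 at 9.96 ± 0.11, F311 at 9.78 ± 0.64 and M6 at 9.54 ± 0.58 (SD, n = 4). The low models were HRM-1, D2A1 at 7.60 ± 0.43, E0771 at 7.77 ± 1.28 and EMT-6 at 8.10 ± 0.81 (SD, n = 4). Each of the 4 low models and 5 of the high models (4T1, 6DT1, Met-1, MVT-1 and R3T) differed from the mean of the others, the largest differences being 1.97 ± 0.28 (SE, adjusted p = 9.7e-07) for 4T1 and -2.72 ± 0.28 (SE, adjusted p = 1.1e-09) for HRM-1.

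Neighbours in the order of Gata3 overlapped except R3T above MVT-1 and MVT-1 above TS/A-E1. Without the 9 tumors 5 of 11 neighbouring pairs did not overlap, but groups with fewer tumors overlap less readily. The share of such pairs over all genes was not counted in either set. The widest of these gaps, 1.73 on the log2 scale, lay between F311, with 2 tumors left, and EMT-6, with 3 left. Those are gaps between neighbouring models, and M6 replicate 4, at 8.68, lay between the F311 and EMT-6 tumors. Among the 9 tumors, replicate 1 of E0771 had 9.66 where the other 3 had 6.89, 7.13 and 7.40, and replicate 3 of EMT-6 had 9.08 where the others had 8.34, 7.79 and 7.19. All 9 calls held without the 9 tumors and without any single tumor. The level of Gata3 did not follow the luminal marker score in every model. HRM-1, lowest in Gata3, had luminal scores between 1.06 and 1.26, the highest lower end of any model, whereas MVT-1, with Gata3 above 10 in all 4 tumors, had luminal scores between -1.99 and -1.57. In D2A1, EMT-6 and E0771 both were low.

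Foxa1, the pioneer factor, was highest in M6 tumors, at 9.19, 10.59, 7.71 and 8.31, and lowest in 4T1 tumors, at 7.08, 6.19, 6.47 and 6.63. It passed the F-test narrowly (adjusted p = 0.034), with a pooled SD within models of 1.05, the largest of the 8 genes. M6 tumors averaged 1.61 ± 0.53 (SE, adjusted p = 0.020) above the other models, a call that did not hold without M6 replicate 1 (1.53, adjusted p = 0.063) or replicate 2 (1.07, adjusted p = 0.196). M6 replicate 2 also stood out in milk protein genes, with a score of 4.67. The F-test itself did not pass in fits that left out M6, Met-1, 4T1, MVT-1 or TS/A-E1 as a whole (adjusted p from 0.050 to 0.135), nor without replicate 1 or 4 of Met-1, replicate 1 or 2 of M6 or replicate 2 of 4T1 (adjusted p from 0.052 to 0.086).

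In some models single tumors stood far above the others. The 6DT1 tumors had 6.21, 10.25, 10.38 and 6.18, so that tumors of the same cell line lay at both ends of the signal seen in the series. The E0771 tumors had 9.43, 6.71, 6.62 and 6.56, and the R3T tumors 7.27, 9.23, 7.31 and 7.16. All 4 high tumors are among the 9, and adipocyte scores in them lay between 2.81 and 4.06. Met-1 tumors were high without such a split, at 8.97, 8.27, 8.46 and 9.02. With all 9 tumors left out the pooled SD was 0.55 and the F-test adjusted p was 2.0e-06. In that fit the 3 remaining Met-1 tumors stood 1.83 ± 0.32 (SE, adjusted p = 2.3e-05) from the mean of the others. M6 tumors stood 1.98 ± 0.28 (SE, adjusted p = 9.6e-07) and the 2 remaining 6DT1 tumors -1.03 ± 0.38 (SE, adjusted p = 0.035) from it.

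Elf5, the alveolar ETS factor, stood apart in 1 model. The Met-1 tumors had log2 signals of 10.89, 9.79, 10.81 and 10.87, and the HRM-1 tumors, lowest on average, had 5.94, 6.02, 5.95 and 6.05. Met-1 tumors were 4.05 ± 0.45 (SE, adjusted p = 5.6e-09) above the mean of the other 11 models, or 16.5-fold, and no other model was called. Only 1 tumor of another model, 6DT1 replicate 2 at 10.31, reached the Met-1 range. Model means of 6DT1 (7.81 ± 2.21), M6 (7.30 ± 1.14), F311 (6.93 ± 1.26) and R3T (6.77 ± 0.87) were raised by single tumors, at 10.31 and 9.05 in 6DT1, 8.87 in M6, 8.79 in F311 and 8.06 in R3T. The other 6 models had means between 6.00 and 6.48 apart from HRM-1 at 5.99, with every neighbouring pair overlapping. Without Met-1 the range of means was 1.82 and the F-test did not pass (adjusted p = 0.131). Without the 9 tumors 6DT1 was lowest, at 5.95 on 2 tumors, Met-1 stood 4.61 ± 0.25 (SE, adjusted p = 2.0e-15) above the others and M6 0.73 ± 0.22 (SE, adjusted p = 0.0084). The milk protein score was between 1.88 and 4.87 in Met-1 tumors, 3.39 and 3.80 in the 6DT1 tumors with high Elf5, 4.67 in M6 replicate 2, 3.63 in R3T replicate 2 and 0.69 in F311 replicate 1. It did not follow Elf5 tumor by tumor: within Met-1, replicate 2 had the highest score and the lowest Elf5, and R3T replicate 3 had a score of 2.21 with Elf5 at 6.39. Their relation was not tested.

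Xbp1 had a high and even signal, with its mean at the 98.4 percentile of all genes and a range of model means of 0.82, which is 1.76-fold. The pooled SD was 0.19, so that this small range still passed the F-test (adjusted p = 8.7e-05). Met-1 was again highest, at 12.50, 12.01, 12.53 and 12.41, above all 4 tumors of EMT-6, the next model, at 11.90, 11.84, 11.90 and 11.82. Met-1 tumors were 0.66 ± 0.10 (SE, adjusted p = 2.4e-06) above the others, or 1.58-fold. M6 was lowest, at 11.46, 11.44, 11.58 and 11.69. Without Met-1 the range was 0.32 and the F-test did not pass (adjusted p = 0.162). In 6DT1 the tumors with high Elf5 also had high Xbp1, at 12.00 and 12.28 against 11.18 and 11.40, and without the 9 tumors 6DT1 was the lowest model, at 11.29 (-0.46 ± 0.06 against the others, SE, adjusted p = 8.7e-07). In that fit 8 of 12 models differed from the others in Xbp1, by between -0.24 and 0.16 on the log2 scale outside Met-1 and 6DT1.

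**Figure D2:**
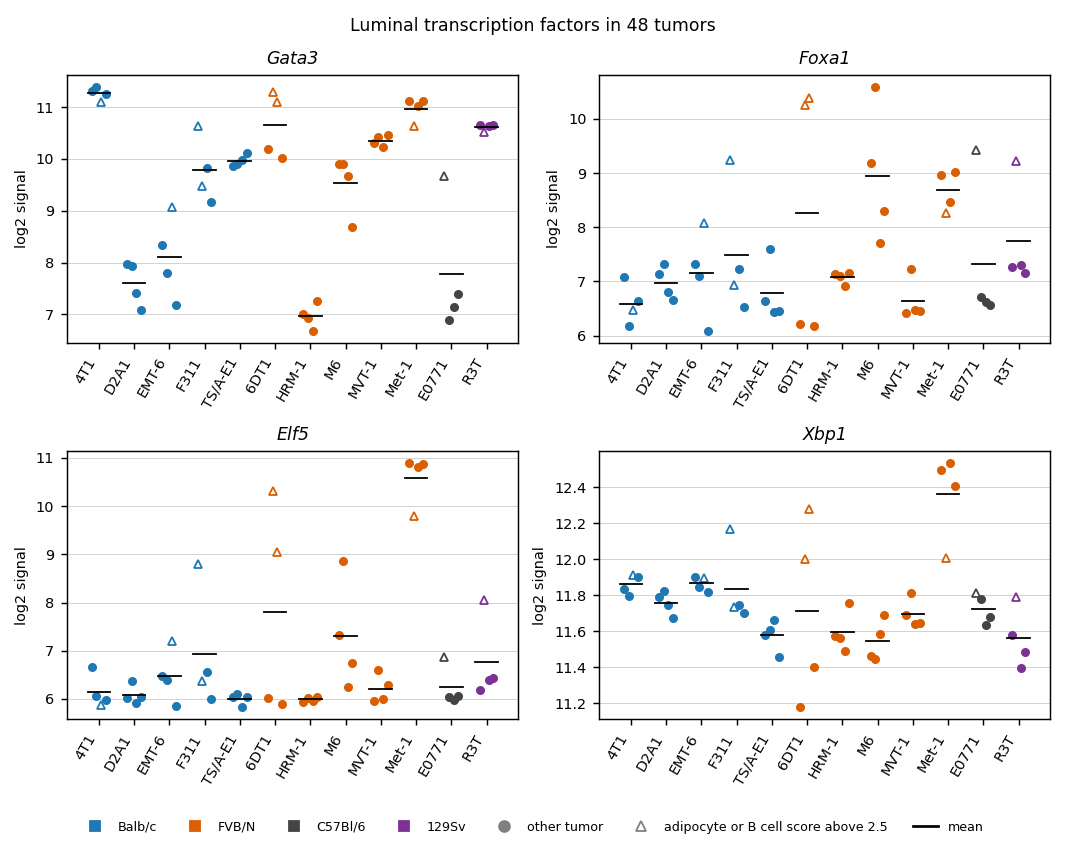
Log2 signal of Gata3, Foxa1, Elf5 and Xbp1 (vertical axes) in the 4 tumors of each of 12 models (horizontal axes), drawn as in the plot of the receptors. Gata3 separates models, Elf5 and Xbp1 are highest in Met-1, and Foxa1 and Elf5 split the 6DT1 tumors into 2 near 6 and 2 above 9.

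Over the 8 genes and 12 models, 20 of 96 model contrasts (20.8%) were called, against 26.7% over all genes, and 12 were higher and 8 lower, against 13.6% and 13.1% of all contrasts in each direction. Gata3 held 9 of the 20. Of the same contrasts without the 9 tumors, 43 of 96 were called (44.8%), against 35.0% over all genes, and 19 of the 20 were among them, the exception being Stat5a in 6DT1. The count went from 1 to 8 for Xbp1, from 3 to 8 for Esr1 and from 1 to 6 for Elf5. Met-1 combined the highest Elf5 and Xbp1 with high Gata3 (1.64 ± 0.28 above the others, SE, adjusted p = 2.1e-05) and the lowest Greb1. EMT-6 combined the highest Esr1 with low Gata3 (-1.49 ± 0.28, SE, adjusted p = 9.0e-05), while 4T1 was high in both. D2A1 was called lower in Esr1, Gata3 and Stat5a, and HRM-1 in Gata3 and Stat5a.

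**Figure D3:**
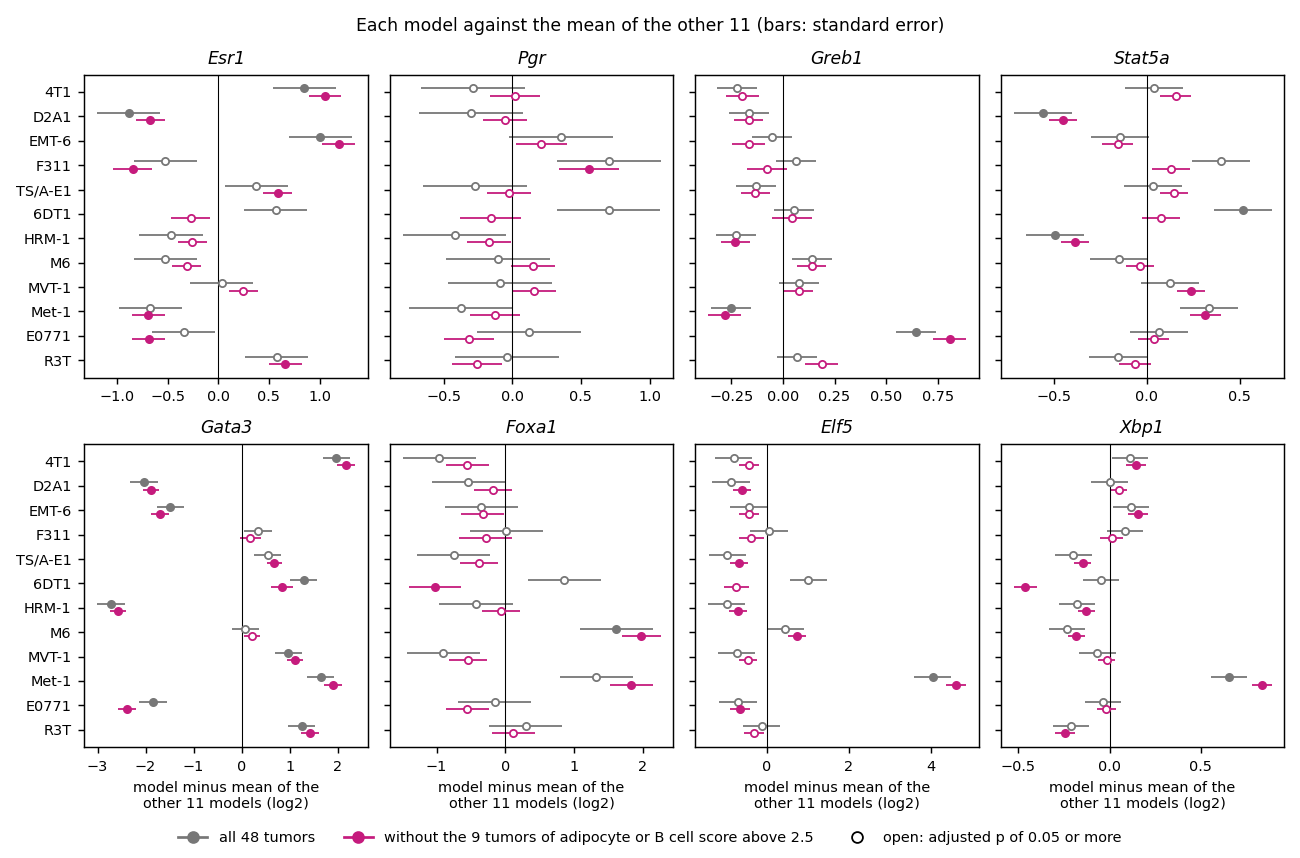
Difference between each model and the mean of the other 11 models in log2 signal (horizontal axes, bars are standard errors) for the 8 genes, over all 48 tumors in gray and over the 39 tumors left without the 9 of high adipocyte or B cell score in pink. Filled points passed an adjusted p under 0.05: Elf5 in Met-1 lies at 4.05 and 4.61 in the 2 fits, and Stat5a in 6DT1 at 0.52 and 0.08.

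Within models, several of the genes were high in the same tumor. All 8 were higher in F311 replicate 1 than in the other 3 F311 tumors, against 42.0% of all genes. Of the 8, 7 were highest in E0771 replicate 1 (21.1% of all genes), all but Greb1, and 7 in EMT-6 replicate 3 (24.1%), all but Xbp1. R3T replicate 2 was highest for 5 (20.9%), namely Esr1, Pgr, Foxa1, Elf5 and Xbp1, and its Gata3, at 10.52, was the lowest of the model. In 6DT1, replicate 2 was highest for 5 genes (16.7%) and replicate 3 for the other 3 (23.4%). The remaining tumors of the 9 did not share this: 4T1 replicate 3 was highest for 1 gene (22.3%), Met-1 replicate 2 for 3 (31.5%) and F311 replicate 2 for 0 (11.8%). Of the tumors outside the 9 with a milk protein score above 2.5, M6 replicate 2 was highest for 6 genes (24.7%) and Met-1 replicate 3 for 1 (14.6%). Some tumors with adipocyte, B cell and milk protein scores below 2.5 were also highest for several genes, and had high markers of other cells. In D2A1 replicate 2 all but Gata3 and Greb1 were highest, and in HRM-1 replicate 4 all but Pgr and Greb1. In MVT-1 replicate 2, Esr1, Foxa1, Elf5, Xbp1 and Stat5a were highest. The adipocyte score of D2A1 replicate 2 (2.05) and the B cell score of HRM-1 replicate 4 (1.63) were the highest of the 39 tumors outside the 9. All 5 B cell and all 6 T cell markers were highest in HRM-1 replicate 4. All 8 adipocyte and all 6 T cell markers were highest in MVT-1 replicate 2. The shares of all genes were not counted for D2A1 replicate 2, HRM-1 replicate 4 and MVT-1 replicate 2. What is highest there therefore cannot be read as particular to the 8 genes.

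Markers of other cells in these tumors are given beside the members. All 8 adipocyte markers were highest in F311 replicate 1, E0771 replicate 1, EMT-6 replicate 3, R3T replicate 2 and M6 replicate 2, where 6, 8, 6, 5 and 4 of 8 basal and myoepithelial and 3, 8, 7, 1 and 2 of 8 luminal markers were highest. The same held for the 8 adipocyte markers in D2A1 replicate 2, HRM-1 replicate 3, MVT-1 replicate 2 and TS/A-E1 replicate 2. In HRM-1 replicate 3, Gata3 (6.69), Foxa1 (6.92) and Xbp1 (11.49) were the lowest of the model, while Pgr (6.02) and Greb1 (5.11) were the highest. In 6DT1 all 8 adipocyte markers were highest in replicate 3 and none in replicate 2, although the adipocyte scores of both were high, at 4.06 and 3.74. In 4T1 replicate 3, where 1 adipocyte marker was highest and the adipocyte score was 0.53, the 5 B cell markers were highest. In F311 replicate 2 the B cell score was 3.11, the adipocyte score 0.018, and none of the 8 genes was highest. Met-1 replicate 2 had all 8 adipocyte and all 5 B cell markers highest, while Elf5 (9.79), Gata3 (10.64), Foxa1 (8.27) and Xbp1 (12.01) were lowest there. The part of these cells in the signal of the 8 genes was not tested.

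Foxa1 and Elf5 were highest in the same tumor in 10 of 12 models, where the median gene shared its highest tumor with Foxa1 in 3. The exceptions were 6DT1, with Foxa1 highest in replicate 3 and Elf5 in replicate 2, and Met-1, with the 2 genes highest in replicates 4 and 1. Pgr shared its highest tumor with Foxa1 in 9 models and with Elf5 in 9, and 0.316% of all genes shared it with Pgr in 9 or more. Esr1 shared it with Foxa1 in 9 and with Stat5a in 9, and 2.21% of all genes shared it with Esr1 in 9 or more. Foxa1 and Greb1 shared it in 3, and Xbp1 and Greb1 in 2. All of these counts come from the same 48 arrays, with the 9 tumors of high adipocyte or B cell score included. Without the 9, the Pearson r of deviations from the model mean was 0.28 in place of 0.77 for Esr1 and Foxa1. For Esr1 and Stat5a it was 0.46 in place of 0.80. It was 0.76 in place of 0.88 for Pgr and Foxa1 and 0.68 in place of 0.82 for Pgr and Elf5. For Foxa1 and Elf5 it was 0.90 in place of 0.92. M6 replicate 2, highest of M6 in both genes and with a milk protein score of 4.67, stayed in this set. For Xbp1 it was -0.21 in place of 0.71 with Elf5, -0.05 in place of 0.70 with Foxa1 and -0.15 in place of 0.48 with Stat5a. With Esr1 it was 0.13 in place of 0.59. For Pgr and Greb1 it was higher, 0.51 in place of 0.05.

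**Figure D4:**
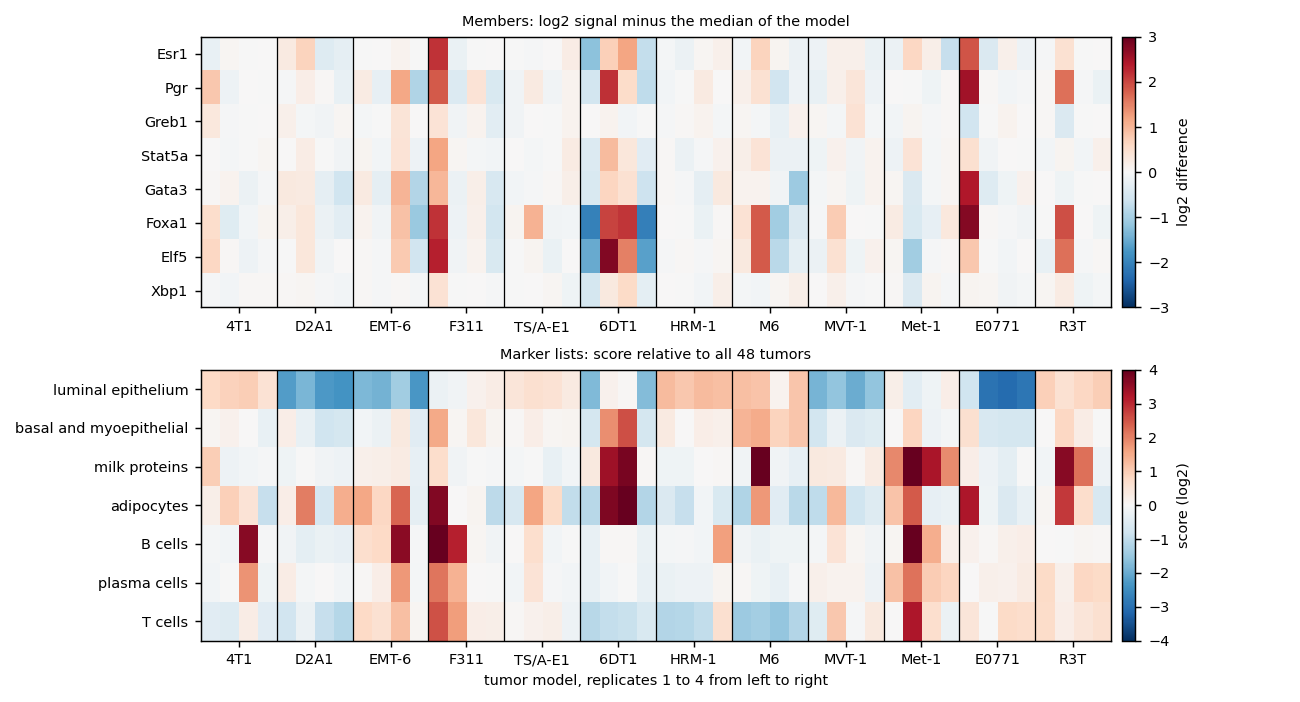
Log2 signal of the 8 genes minus the median of the model (top, color scale in log2) and scores of 7 marker lists relative to the median of all 48 tumors (bottom), with the 4 tumors of each model side by side in the order of replicates 1 to 4. Red columns recur for Esr1, Pgr, Foxa1 and Elf5 in F311 replicate 1, 6DT1 replicates 2 and 3 and E0771 replicate 1, where the adipocyte score is between 3.24 and 4.06.

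Across model means, Foxa1 and Elf5 had a Pearson r of 0.76 and a Spearman rho of 0.84, the highest of all pairs of the 8 genes by either measure. Elf5 and Xbp1 had r = 0.75 but rho = 0.20, as Met-1 was highest in both. Gata3 and Stat5a had r = 0.68. These are descriptions over 12 means from the same arrays, with the 9 tumors of high adipocyte or B cell score included. The 6DT1 means were 8.26 for Foxa1 and 7.81 for Elf5. Without the 9 tumors they were 6.20 and 5.95, the lowest of the 12 models for both genes. Correlations of model means without the 9 tumors were not computed. Among genes that passed the F-test, the 3 with the means most like those of each member over the 12 models were chosen by Pearson r. For Elf5 they were Kank4 (r = 0.996), Sox10, a transcription factor of the neural crest (0.99), and Tmem30b (0.99), and for Xbp1 they were Sec22b, which acts in transport between endoplasmic reticulum and Golgi (0.95), Osbpl7 (0.94) and Zfp954 (0.93). Without Met-1, r was 0.93 or more for the genes of Elf5, and between 0.75 and 0.80 for those of Xbp1. For Foxa1 they were Grhl1, an epithelial transcription factor (0.95), Clmn (0.94) and Tmprss2, a membrane protease (0.94). For Gata3 they were Tenm3 (0.89), Crispld2 (0.89) and Ip6k1 (0.88), and for Stat5a Fbxo9 (0.88), Hectd3 (0.88) and Kif1b (0.85). For Pgr they were Gja5, a gap junction protein (0.87), Nrn1 (0.86) and Gldc (0.82). Pgr itself did not pass the F-test (adjusted p = 0.509). Its highest means, 6.82 in F311 and 6.82 in 6DT1, were 6.46 and 5.81 without the 9 tumors. For Esr1 they were the microRNA genes Mirlet7d (0.93) and Mir99b (0.86) and Rnf11 (0.86), and for Greb1 they were Sec1 (0.94), Stac3 (0.92) and Fsd2 (0.92), with r between 0.71 and 0.80 when E0771 was left out.

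Related genes are described by counts, to be read against the 70.4% of all genes that passed the F-test and their median range of 0.68. Of 10 measured hormone-responsive genes 8 passed, a share near that of all genes, with a median range of 1.02. Nrip1, a corepressor of the estrogen receptor, was highest in M6 tumors (9.80 ± 0.41) and lowest in EMT-6 tumors (8.48 ± 0.22, SD, n = 4, adjusted p = 2.6e-11), the model highest in Esr1. Ccnd1, cyclin D1, was highest in 4T1 tumors at 12.75 and lowest in 6DT1 tumors at 11.50, and Rara, a retinoic acid receptor, ranged from 10.15 in HRM-1 to 9.39 in Met-1 tumors. Of 7 prolactin and Stat5 genes 6 passed, with a median range of 2.29. Wap, a whey protein of milk, was highest in Met-1 tumors (8.86 ± 0.55) and lowest in 4T1 tumors (6.57 ± 0.06, SD, n = 4, adjusted p = 1.6e-13). Socs2, a feedback inhibitor of Stat5 signaling, was also highest in Met-1 tumors, at 10.62, while Jak2, the kinase that phosphorylates Stat5, ranged from 11.33 in 4T1 to 8.87 in M6 tumors.

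Of 10 other epithelial transcription factors 9 passed, with a median range of 2.82. Elf3, another ETS factor, was highest in HRM-1 tumors at 9.55, where Elf5 was lowest, and lowest in MVT-1 tumors at 6.05. Grhl2, which maintains epithelial junctions, ranged from 9.40 in M6 to 6.06 in MVT-1 tumors, and Tbx3 from 10.18 in E0771 to 7.72 in Met-1 tumors. Of 8 other nuclear receptors 7 passed, and Vdr, the vitamin D receptor, had the smallest p, with 11.40 ± 0.14 in M6 and 8.10 ± 0.29 in E0771 tumors (SD, n = 4, adjusted p = 5.0e-18). Thra, a thyroid hormone receptor, was highest in MVT-1 tumors at 10.48 and Nr3c1, the glucocorticoid receptor, in 6DT1 tumors at 9.54. All 8 measured coregulators of nuclear receptors passed, with a median range of 0.66, close to that of all genes. Among them Lmo4 ranged from 11.49 in Met-1 to 9.28 in MVT-1 tumors, the histone acetyltransferase Crebbp from 11.65 in Met-1 to 10.87 in E0771, and the arginine methyltransferase Carm1 from 11.56 in D2A1 to 10.83 in Met-1. All 14 genes of Xbp1 and endoplasmic reticulum stress passed, with a median range of 0.85, and 6 of the 14 were highest in Met-1 tumors, as were 8.55% of all genes. These included the chaperone partner Dnajc3 at 10.73, while Ern1, which encodes the sensor that splices Xbp1 mRNA, was lowest in Met-1 tumors (9.24 ± 0.08) and highest in 4T1 tumors (10.15 ± 0.16, SD, n = 4), and Edem1 was highest in E0771 tumors at 11.40.

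Balb/c and FVB/N models were compared on the means of 5 models each, because the tumors of 1 line say nothing of the spread between lines. In these 10 models strain cannot be told apart from origin, spontaneous or engineered. None of the 8 genes passed limma's test (adjusted p of 0.655 or more), where 0.191% of all genes did, and at an unadjusted p under 0.05 none of the 8 passed either, against 8.01% of all genes. The widest differences were those of Elf5, at 6.33 in Balb/c and 7.58 in FVB/N models (difference -1.25, 95% interval -3.01 to 0.51), and Foxa1, at 6.997 and 7.92 (difference -0.93, 95% interval -1.92 to 0.07). For Xbp1 the interval was -0.34 to 0.33 and for Greb1 -0.25 to 0.14, while for Gata3 it was -2.41 to 1.70, since low and high models occurred in both strains.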

How the data were processed

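RNA from 48 orthotopic mouse mammary tumors, 4 per model, was labeled and hybridized to Affymetrix Mouse Gene 1.0 ST arrays, 1 array per tumor. Values were the log2 signals the authors deposited for 35556 transcript clusters, from 3.49 to 14.12. How they corrected background and normalized is not given in the sources used here, and the number of arrays limits the precision. The highest correlation between 2 arrays was 0.99672, so no pair was treated as a duplicate. Groups, strain and origin came from the sample labels.

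Gene names came from the platform annotation, in which 21789 clusters have 1 gene, 1621 have several and 12146 are unnamed, and 21698 clusters matched a RefSeq gene ID. Clusters with 1 gene were kept, and where a gene had several the one with the highest mean was used. Models were compared with limma 3.58.1 in R 4.3.3: an F-test over the 12 models, each model against the mean of the other 11 (adjusted over all genes and contrasts together), and Balb/c against FVB/N on model means. Thresholds were a Benjamini-Hochberg adjusted p of 0.05. Promoter windows were from the RefSeq table for GRCm38.p6. Scores and figures used Python 3.11.15, numpy 2.4.6, pandas 2.3.3 and matplotlib 3.10.9. The fits were tested on simulated data.

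The genes described are the listed members, the 3 genes most like each in model means (past the F-test, predicted symbols left out), and up to 3 genes per related list with the smallest F-test p. The members and lists were chosen with earlier results of these data known. Some genes of the related and marker lists are not reported here. Marker lists were luminal, basal and myoepithelial, milk protein, adipocyte, B cell, plasma cell, T cell, macrophage and fibroblast genes. The alternatives were quantile normalization, centring of arrays, averaging the clusters of a gene, a filter on the dimmest 30% of clusters, a trended or robust prior, a term for the replicate number, the methods' one-way and t-tests, the model as a random block, medians in place of means, and leaving out tumors, models or the tumors of high adipocyte or B cell score. Leaving out tumors of high milk protein score too was chosen after seeing the data.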

Additional observations from a re-analysis of the deposited data

Results flagged for a closer look

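In 19 of 96 groups of 4 tumors (8 genes in 12 models), the highest or the lowest tumor lay far from the others, by Dixon's ratio of the gap to the whole range. That is 19.8% of the groups, against 7.35% over all genes, and chance gives about 1 in 20. The groups of the 8 genes share the same tumors, so single tumors recur. The highest tumor was the one apart in 16 groups and the lowest in 3, and 14 of the 19 values came from the 9 tumors with an adipocyte or B cell score above 2.5. How often those 9 tumors stood apart over all genes was not counted, so the 14 cannot be read as particular to the 8 genes.

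R3T replicate 2 accounted for 6 of them: Esr1 at 9.21 (nearest tumor 8.77), Pgr at 7.44 (5.81), Foxa1 at 9.23 (7.31) and Elf5 at 8.06 (6.44) were high, while Gata3 at 10.52 (10.63) and Greb1 at 4.95 (5.38) were low. Its milk protein score was 3.63 and its adipocyte score 2.81. E0771 replicate 1, with an adipocyte score of 3.24, had high Pgr at 8.20 (5.72), Foxa1 at 9.43 (6.71) and Elf5 at 6.87 (6.07). F311 replicate 1, with an adipocyte score of 3.70 and a B cell score of 4.66, had high Esr1 at 9.52 (7.37), Xbp1 at 12.17 (11.75) and Stat5a at 10.34 (9.24). Elf5 in Met-1 replicate 2 was low, at 9.79 (10.81), in a tumor with a B cell score of 4.61, and Greb1 in EMT-6 replicate 3 was high, at 5.48 (5.10), in a tumor with a B cell score of 3.60.

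The other 5 values came from tumors below both limits. They were Esr1 at 8.85 in TS/A-E1 replicate 4 (nearest tumor 8.64), Foxa1 at 7.60 in TS/A-E1 replicate 2 (6.64) and at 7.23 in MVT-1 replicate 2 (6.48), and Pgr at 6.55 (5.77) and Greb1 at 5.26 (4.95) in 4T1 replicate 1. The part of adipocytes, B cells or other tissue in these values was not tested.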

How the results depend on the processing

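The counts over all genes of the F-test and of the model contrasts stayed within 1.5 times of 14031 and 63925 under every alternative, and of the 20 called contrasts of the members most kept their call. Outside fits without single tumors or models, calls were lost for Esr1 in 4T1 (adjusted p = 0.052) and Greb1 in Met-1 (0.055) with quantile normalization, and Stat5a in 6DT1 without the 9 tumors of high adipocyte or B cell score (0.634) or also without those of high milk protein score (0.528), and for Greb1 in Met-1 with the replicate block. Without the 9 tumors 24 contrasts of the members were called that were not called over all 48. With the dimmest 30% of clusters left out, Greb1 was not tested.

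Replicate numbers had no shared origin in the labels, and 17 of 48 tumors correlated best with their own number. With the replicate block 14009 genes passed the F-test and 63642 contrasts were called, and among the members Greb1 in Met-1 alone lost its call (adjusted p = 0.051).

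For Balb/c minus FVB/N, 38 genes passed, against 1545 with the methods' t-test unadjusted, 489 with all tumors and the model as a random block (446 with the replicate block too), and 21 without MVT-1, 19 without EMT-6, 22 without 4T1 and 24 without Met-1. Without 1 tumor the count was between 30 and 51 (51 without 6DT1 replicate 2). None of the 8 genes passed in these fits. The sign of the Xbp1 difference, -0.0029, changed to 0.0070 with centred arrays, 0.031 without the 9 tumors and 0.029 also without those of high milk protein score. It ran from -0.039 to 0.035 without 1 tumor and from -0.062 to 0.142 without 1 model. Without 1 tumor or 1 model, the Pgr difference ran from -0.011 to 0.210 and from -0.063 to 0.262. Without 1 model, that of Gata3 ran from -1.04 to 0.082 and that of Stat5a from -0.233 to 0.014, both positive without D2A1. The cause was not tested.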
